A study of Caenorhabditis elegans with 6 samples.

Results

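The insulin signaling core of *C. elegans* comprises 8 genes listed by name for their place in the pathway, in a rule that uses no measured value: the receptor *daf-2*, the lipid kinase *age-1*, the lipid phosphatase *daf-18*, the protein kinases *pdk-1*, *akt-1*, *akt-2* and *sgk-1*, and the transcription factor *daf-16*. Earlier results of these data were known when the members were chosen. The members are 8 of the 20138 genes in the deposited table, and all 8 passed the filter on low counts that left 13413 genes for testing. Messenger RNA was sequenced from whole day 1 adults in WT (3 libraries) and in 3 libraries whose label is *fmo-4* OE (called OE-labelled libraries here), a strain meant to overexpress the flavin-containing monooxygenase *fmo-4*. All worms were untreated and grew on OP50 bacteria, and each library was made from a pool of worms. The labels do not say whether the transgene was driven by the ubiquitous or by the hypodermal promoter that the study describes, and the WT worms carried no transgene. The study asked, among other questions, whether *fmo-4* acts in longevity pathways that include reduced insulin signaling through *daf-2*. From lifespans of *fmo-4* knockout worms on *daf-2* RNAi, it reported that this extension did not require *fmo-4*.

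Insulin-like peptides bind the receptor DAF-2, which recruits the phosphoinositide kinase AGE-1 to the membrane. The lipid that AGE-1 makes is removed by the phosphatase DAF-18, and it recruits PDK-1 and the kinases AKT-1 and AKT-2, while SGK-1 is a related kinase that also works below TORC2. AKT phosphorylates the FOXO factor DAF-16 and keeps it out of the nucleus, so that lower signaling lets DAF-16 enter the nucleus and change the transcription of stress resistance, metabolic and lifespan genes. Most of this control is by phosphorylation and localization of proteins, which sequencing of messenger RNA does not measure.

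The libraries held 17576872 to 24943501 reads in genes, and the biological coefficient of variation over the genes tested was 0.297. The check of the labels went against them. *fmo-4* itself had 522, 397 and 525 reads in the WT replicates against 372, 476 and 368, a normalized count (scaled to a common library size) of 480 ± 42.8 (mean ± SD, n = 3) against 407 ± 49.8 (n = 3). The log2 fold change was -0.24 (standard error, SE, 0.18), with an edgeR adjusted p-value of 0.947. Normalized *fmo-4* counts in OE-labelled libraries (425, 446 and 351) were all below WT (528, 449 and 462), as for 5.26% of all genes tested. The study reports raised *fmo-4* by qPCR in both of its overexpressing strains, but no overexpression was seen in these counts. Every direction given here is therefore between libraries as labelled. The percent of reads in genes shorter than 1000 bases also separated the libraries, at 19.7 and 20.6 in WT replicates 1 and 2 and 20.02 in *fmo-4* OE replicate 1, and at 26.2 in WT replicate 3 and 26.5 and 25.4 in *fmo-4* OE replicates 2 and 3. Markers of germline, sperm, neuron and intestine were detected in every library, while 1 of 7 hypodermis markers was at 0 in at least 1 library and was not tested. Summed marker levels overlapped between the groups in all 5 lists, although 5 of 8 sperm markers were lower under the OE label at an unadjusted p-value under 0.05, beside 3.01% of all genes tested, with sums of 32.7 to 202 RPKM (reads per kilobase of gene length, scaled to library size) in WT against 35.7 to 44.9. Each sperm marker was highest in WT replicates 1 and 3, and WT replicate 2 was not raised, so WT was itself split. *gsp-3*, for example, had normalized counts of 247, 57.6 and 199 in WT replicates 1 to 3 against 37.7, 62.8 and 35.3. Of the 6 hypodermis markers tested, 5 had a log2 fold change above 0 (median 0.68), although their sum was mostly the collagen *col-19*. The largest difference among them was in *dpy-7*, a cuticle collagen, at 17.2, 161.6 and 29.9 normalized counts in WT against 132.6, 359.7 and 441.8 (log2 fold change 2.18, adjusted p-value 0.642). In the study the *dpy-7* promoter drives the hypodermal *fmo-4* transgene, and whether this bears on the *dpy-7* counts was not tested.

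The first question was how the levels of the core genes compare with each other, given as RPKM so that genes of different length can be compared. *daf-18* had the highest level, 180 ± 8.88 (mean ± SD over 6 libraries), and was first in 6 of 6 libraries. It held 46.2% of the summed level of the 8 genes, and its level ranked at percentile 95.4 among 13060 tested protein-coding genes. *akt-1* was next at 101 ± 8.44, percentile 90.6. The phosphatase and this AKT kinase were thus the members with abundant messages, and neither range touched that of any other member.

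*daf-16* (39.1 ± 3.92) and *age-1* (30.6 ± 3.21) came next. Their ranges, 32.8 to 44.1 and 26.4 to 34.6, overlapped, although *daf-16* was above *age-1* within each of the 6 libraries. The receptor *daf-2* followed at 17.9 ± 1.99 and *sgk-1* at 11.2 ± 2.22, the latter near the median level of protein-coding genes tested, 10.96. With the exon lengths of the WBcel235 annotation in place of the deposited lengths, *daf-2* was at 13.3 and its range of 11.5 to 15.9 overlapped that of *sgk-1*, 8.44 to 14.9, although its mean remained above the 11.3 of *sgk-1*. The same lengths separated *daf-16*, at 39.3 to 52.7, from *age-1*, at 25.3 to 33.2. *pdk-1* (5.12 ± 1.31) and *akt-2* (4.77 ± 0.971) had the lowest levels and could not be ordered, since *pdk-1* was the higher in 3 of 6 libraries. The mean level of *daf-18* was 37.8 times that of *akt-2*, and the full order of the means held within 3 of 6 libraries. The counts pool all isoforms of a gene, and in whole worms fewer cells of a type and less RNA per cell cannot be told apart.

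**Figure D1:**
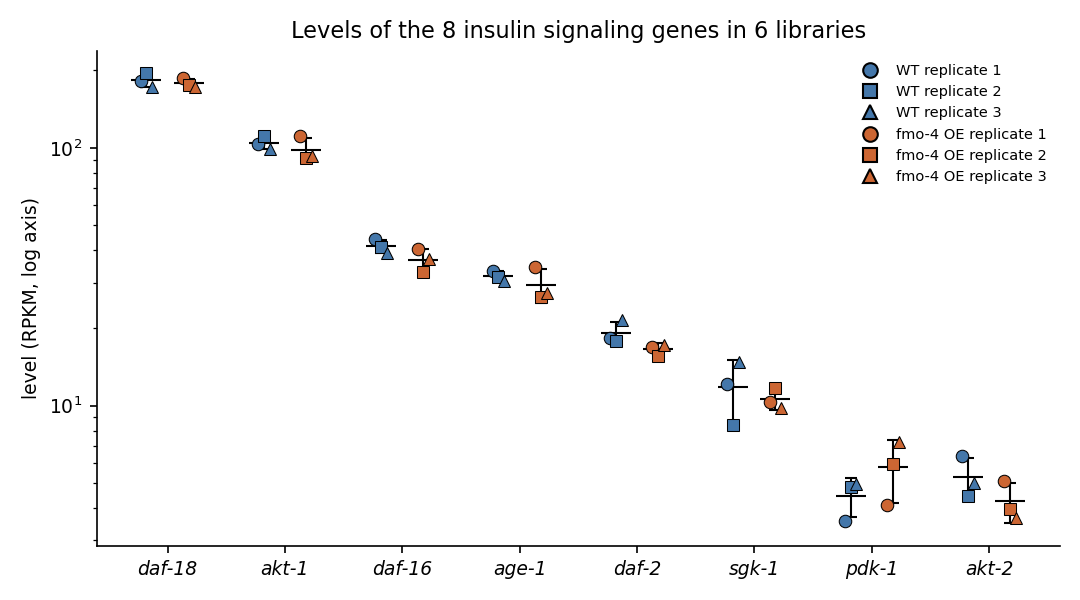
Levels of the 8 insulin signaling genes in RPKM (log axis), with 1 point per library, horizontal marks and bars for the mean and SD of each labelled group (n = 3), and genes ordered by their mean. The *daf-18* points (172 to 195) lie above all others, and *pdk-1* and *akt-2* lie lowest and overlap each other.

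The second question was whether any core gene differed between the labelled groups, beginning with the receptor. *daf-2* (Y55D5A.5, chromosome III, 3006850 to 3028800, minus strand) encodes the insulin/IGF receptor, and the WBcel235 annotation gives it 7 transcripts. It had 2303, 2014 and 3102 reads in WT replicates 1 to 3 against 1888, 2109 and 2296 under the OE label, which gave normalized counts of 2331, 2276 and 2729 against 2158, 1975 and 2191. The 3 OE-labelled libraries were below all 3 WT libraries, and WT replicate 3 was the highest of the 6. The means were 2445 ± 247 and 2108 ± 116, a log2 fold change of -0.21 (SE 0.13, 95% interval -0.51 to 0.08) with an edgeR adjusted p-value of 0.839. *daf-2* was the 1 member of 8 whose groups did not overlap, beside 11.1% of all genes tested in either direction and 5.26% with OE-labelled libraries lower, and its interval included 0.

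*age-1* (B0334.8, chromosome II, 11519499 to 11527062, minus strand) encodes the catalytic subunit of the phosphoinositide kinase. Its normalized counts were 2581, 2462 and 2371 in WT against 2689, 2052 and 2132 in OE-labelled libraries. The highest and the lowest library both carried the *fmo-4* OE label, and the log2 fold change was -0.11 (SE 0.14, 95% interval -0.43 to 0.22, adjusted p-value 0.956). Exons of *age-1* share 192 bases with *B0334.10* on the opposite strand, which had 9 reads in all, and smaller overlaps with opposite-strand genes were annotated for *pdk-1* (15 bases), *akt-1* (8 bases, with *rop-1*) and *daf-16* (84 bases). Whether reads were counted by strand is not given in the sources used here.

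*daf-18* (T07A9.6, chromosome IV, 419987 to 425173, minus strand) encodes the lipid phosphatase that removes the product of AGE-1. Its normalized counts were 12582, 13461 and 11912 in WT against 12880, 12167 and 11901 in OE-labelled libraries, the smallest spread among the members, with a coefficient of variation of 4.92% over the 6 libraries. The groups overlapped, and the log2 fold change was -0.04 (SE 0.12, adjusted p-value 0.965). Its 95% interval ran from -0.32 to 0.24, or from 0.803 to 1.18 times the WT level. With 11267 to 13539 reads per library, counting error alone would give a coefficient of variation of 0.897%.

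Among the kinases below the lipid signal, the 3 with few reads (*pdk-1*, *akt-2* and *sgk-1*) varied most between libraries. *pdk-1* (H42K12.1, chromosome X, 1321353 to 1327985, plus strand), which encodes the kinase that activates the AKT kinases, had 176, 213 and 282 reads in WT replicates 1 to 3 against 180, 316 and 378 under the OE label. Its normalized counts were 178, 241 and 248 against 206, 296 and 361. The groups overlapped through *fmo-4* OE replicate 1, and *pdk-1* was the 1 member with a higher mean under the *fmo-4* OE label. The log2 fold change was 0.37 (SE 0.26, 95% interval -0.24 to 0.98, adjusted p-value 0.916). Without *fmo-4* OE replicate 1 it was 0.58 with an unadjusted p-value of 0.0490, and without *fmo-4* OE replicate 3 it was 0.18. In the fit without *fmo-4* OE replicate 1, 10.4% of all genes tested had an unadjusted p-value under 0.05. The coefficient of variation was 25.7%, against 6.23% expected from counting error alone.

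*akt-1* (C12D8.10, chromosome V, 10248905 to 10251739, plus strand) had normalized counts of 4976, 5319 and 4756 in WT against 5314, 4398 and 4451 in OE-labelled libraries. *fmo-4* OE replicate 1 lay beside the highest WT library, the other 2 below all of WT, and the log2 fold change was -0.09 (SE 0.13, 95% interval -0.38 to 0.21, adjusted p-value 0.956). Its close relative *akt-2* (F28H6.1, chromosome X, 14147700 to 14151968, plus strand) had 310, 194 and 281 reads against 219, 209 and 189, and normalized counts of 314, 219 and 247 against 250.3, 196 and 180.3. The log2 fold change of *akt-2* was -0.32, the lowest of the 8, and its 95% interval of -0.86 to 0.22 was wide (SE 0.23, adjusted p-value 0.930). WT replicate 1 was the highest library for *akt-2*, and without it the log2 fold change was -0.17.

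*sgk-1* (W10G6.2, chromosome X, 16254840 to 16260128, minus strand) encodes the serum- and glucocorticoid-regulated kinase. Its normalized counts were 411, 285 and 502 in WT against 349.8, 398 and 333 in OE-labelled libraries. WT held both the highest and the lowest library, so the groups overlapped fully, with a log2 fold change of -0.15 (SE 0.24, 95% interval -0.70 to 0.40, adjusted p-value 0.956). Without WT replicate 3 the difference turned to 0.047, and without WT replicate 2 it was -0.35.

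*daf-16* (R13H8.1, chromosome I, 10750343 to 10776039, plus strand) encodes the FOXO factor at the end of the cascade, and the annotation gives it 11 transcripts. It had 3961, 3329 and 4027 reads in WT replicates 1 to 3 against 3226, 3186 and 3513 under the OE label, which gave normalized counts of 4009.8, 3761 and 3543 against 3688, 2984 and 3352. The groups overlapped, since *fmo-4* OE replicate 1 was above WT replicate 3. The means were 3771 ± 234 and 3341 ± 352, a log2 fold change of -0.17 (SE 0.13, 95% interval -0.47 to 0.12, adjusted p-value 0.925). An increase of more than 1.09 times the WT level or a decrease to less than 0.723 times it was outside this interval.

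In all, 7 of 8 members had a log2 fold change below 0 and 1 was above 0, with a median of -0.13 against -0.02 over all genes tested, of which 52.8% were below 0. None of the 8 passed the edgeR test at an adjusted p-value under 0.05, beside 0.0447% of all genes tested (6 genes), and 0 of 8 had an unadjusted p-value under 0.05, beside 7.34% of all genes. DESeq2 also called 0 of 8, adjusted or unadjusted. The first and last quartiles of all genes tested were -0.18 and 0.21, and *daf-2*, *akt-2* and *pdk-1* lay outside them. These tests do not show that the genes are equal in both groups. The 95% intervals extended to 1.98 times the WT level for *pdk-1* and down to 0.552 times for *akt-2*, while for *daf-2*, *age-1*, *akt-1* and *daf-16* they went no lower than 0.703, 0.740, 0.767 and 0.723 times.

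**Figure D2:**
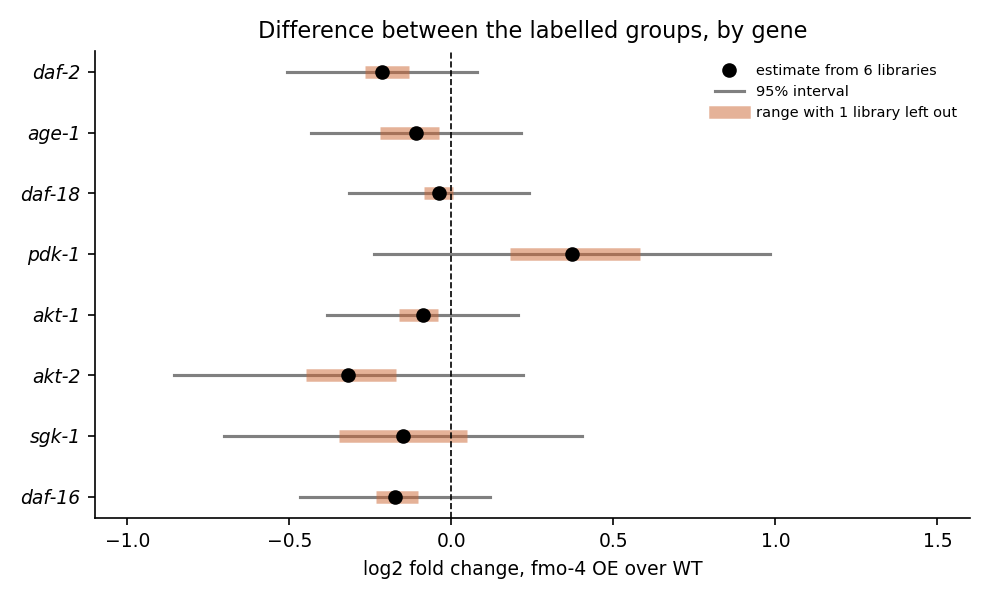
Log2 fold change of each core gene, OE-labelled libraries over WT, from edgeR; points are estimates, thin bars 95% intervals and thick bars the range with 1 library left out. All 8 intervals include 0, and those of *pdk-1*, *akt-2* and *sgk-1*, the genes with the fewest reads, are the widest.

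Ratios within a library do not depend on the scaling between libraries, and 3 were compared. The ratio of *akt-1* to *akt-2*, both per kilobase, was 16.22, 24.8 and 19.7 in WT against 21.7, 22.98 and 25.2 in OE-labelled libraries. The AKT message was thus mainly *akt-1* in every library, and the groups overlapped (difference of mean log2 ratios 0.22, exact two-sided permutation p = 0.3). The level of *daf-18* was 5.47, 6.14 and 5.64 times that of *age-1* in WT and 5.38, 6.66 and 6.27 times in OE-labelled libraries, so that the phosphatase message exceeded the message of the kinase it opposes in 6 of 6 libraries. The log2 ratio of *age-1* to *daf-18* differed between groups by -0.08 (exact permutation p = 0.5). The ratio of *daf-2* to *daf-16* was 0.415, 0.432 and 0.550 in WT against 0.418, 0.472 and 0.467 in OE-labelled libraries, with WT replicate 3 the highest, and a difference of -0.03 in the mean log2 ratio (exact permutation p = 0.9). With 3 libraries against 3 the smallest p this test can give is 0.1, so no ratio could pass at 0.05, with or without adjustment over the 3.

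**Figure D3:**
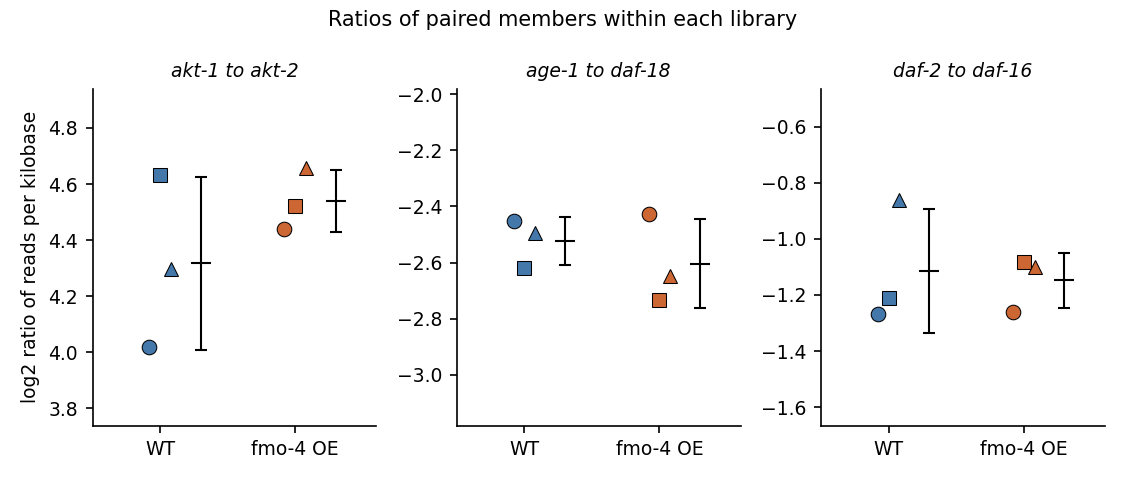
Log2 ratios of reads per kilobase for 3 pairs of core genes, with 1 point per library by labelled group and the group mean with its SD beside the points. The groups overlap in each panel, and the *akt-1* to *akt-2* ratio varies most among WT libraries (16.22 to 24.8 on the linear scale).

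Several members varied together across the 6 libraries in a way that did not follow the labels. After each gene was centred on its own mean, the profiles of *age-1* and *akt-1* differed by a root mean square of 0.0608 on the log2 scale, those of *daf-18* and *akt-1* by 0.0635, and those of *age-1* and *daf-16* by 0.0662. The most unlike pair was *pdk-1* and *akt-2*, at 0.585. These profiles share library depth and the scaling, and they are a description over 6 libraries.

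The shared profile moved with the percent of reads in short genes. In the 3 libraries with more such reads (replicates 2 and 3 under the OE label, and WT replicate 3), 4 of 8 members were below the other 3 libraries without overlap, beside 19.6% of all genes tested, and *pdk-1* was above them, beside 19.8%. Normalized counts of *daf-16* were 2984 to 3543 in those libraries and 3688 to 4009.8 in the other 3. *akt-1* was at 4398 to 4756 against 4976 to 5319, and *age-1* at 2052 to 2371 against 2462 to 2689. *daf-18* showed the same split, at 11901 to 12167 against 12582 to 13461, whereas *daf-2*, *akt-2* and *sgk-1* overlapped. Because 2 of these 3 libraries carry the *fmo-4* OE label, the fit was repeated with this percent as a covariate. The log2 fold changes were then -0.24 for *daf-2* (unadjusted p 0.0439, adjusted p-value 0.543), 0.22 for *pdk-1*, -0.05 for *age-1*, -0.04 for *akt-1* and -0.12 for *daf-16*, and again 0 of 8 passed the adjusted threshold. With this covariate 8.92% of all genes tested had an unadjusted p-value under 0.05.

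**Figure D4:**
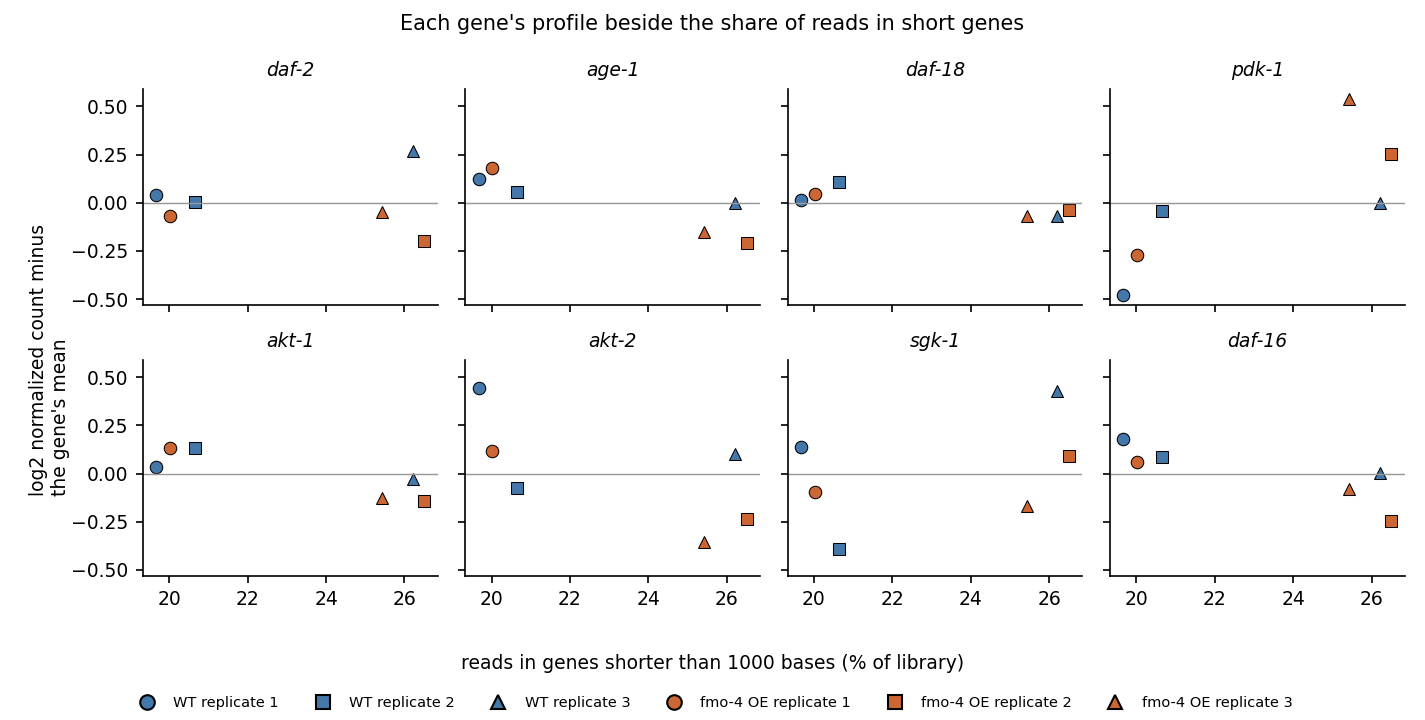
Log2 normalized count of each core gene minus its mean over 6 libraries (vertical axis) against the percent of reads in genes shorter than 1000 bases (horizontal axis), with 1 point per library. For *age-1*, *daf-18*, *akt-1* and *daf-16* the 3 libraries at 25.4 to 26.5% lie below the 3 at 19.7 to 20.6%, and for *pdk-1* above.

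Among 10063 genes with a mean normalized count of at least 50, those with the profile most like *daf-16* were *riok-1*, a RIO family kinase gene (root mean square difference 0.0235), *kin-1*, the catalytic subunit of protein kinase A (0.0342), and *alh-3*, an aldehyde dehydrogenase family gene (0.0352). The nearest core member to *daf-16*, *age-1*, ranked 96. For *daf-2* the nearest were *him-19*, named for a role in meiosis (0.0395), *C30G7.2* (0.0548) and *ZC443.3* (0.0552). The nearest member to *daf-2* was *daf-16*, at rank 644, so the receptor did not share its profile closely with the rest of the core.

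The genes around the core were described as 6 lists, and 0 genes of any list passed at an adjusted p-value under 0.05. At an unadjusted p-value under 0.05, 4.32% of all genes tested were higher and 3.01% lower in OE-labelled libraries. Among 40 insulin-like peptide genes, the ligands of DAF-2, 35 were in the table and 15 passed the count filter. Only *ins-2* among them had an unadjusted p-value under 0.05, with 5, 26 and 12 reads in WT replicates 1 to 3 against 27, 58 and 60 under the OE label. The groups did not overlap for normalized *ins-2* (5.06, 29.4 and 10.6 against 30.9, 54.3 and 57.2), and its log2 fold change was 1.68 (SE 0.61, adjusted p-value 0.597). It was 1.26 with WT replicate 1 left out and 2.57 with WT replicate 2 left out. WT replicates 1 and 3 were lowest for *ins-2*, as for *dpy-7* but not for most hypodermis markers tested. The same libraries were the highest for the sperm markers. The others named by rule were *daf-28*, a neuronal ligand that promotes reproductive growth, at 0.53 (adjusted p-value 0.893), and *ins-34* at 1.35 (SE 0.94, adjusted p-value 0.913). For *ins-34* the value was 0.49 with the short-gene covariate and 2.46 without WT replicate 3. The median of the list was 0.17, from -0.08 with the short-gene covariate to 0.60 without WT replicate 3, and 12 of the 35 had 0 reads in at least 1 library.

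Adaptors, phosphatase subunits, TORC2 subunits and *eak* genes that act on the cascade numbered 10 tested of 14 listed, and 0 had an unadjusted p-value under 0.05 in either direction, with a median log2 fold change of -0.04. *aap-1*, the adaptor subunit of the AGE-1 kinase, was at -0.12, *rict-1*, the Rictor subunit of TORC2, at -0.11, and *eak-7*, which acts with AKT-1 on DAF-16, at 0.15 (each adjusted p-value 0.956). Among 22 partners and parallel factors of DAF-16, all tested, 0 had an unadjusted p-value under 0.05 and the median was -0.01. The smallest p-value belonged to *pqm-1*, a zinc finger factor that is nuclear when DAF-16 is not, at 614 ± 136 and 450.5 ± 69.2 normalized counts (log2 fold change -0.45, SE 0.22, adjusted p-value 0.742). *sir-2.1*, a sirtuin deacetylase, was at -0.25 and *skn-1*, the Nrf-like stress factor, at -0.21.

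Targets of DAF-16 offer a readout of the cascade that does not rest on the core genes' own messages. Of 25 listed genes that are raised through DAF-16 when insulin signaling is low, 21 were tested, and 3 had an unadjusted p-value under 0.05, 2 of them higher and 1 lower. *cki-1*, a cyclin-dependent kinase inhibitor, had normalized counts of 102, 226 and 121 in WT against 266, 320.3 and 419 in OE-labelled libraries (log2 fold change 1.16, SE 0.34, adjusted p-value 0.583). WT replicates 1 and 3 were the lowest libraries for *cki-1*, as they were for the hypodermis markers *dpy-7* and *che-14*. The other tested hypodermis markers did not share this, and *col-19* was highest in WT replicate 3 (29617 normalized counts). WT replicates 1 and 3 were also the highest libraries for each of the 8 sperm markers. The part of hypodermis or sperm markers in the *cki-1* difference was not tested. *fat-5*, a fatty acid desaturase, was at 208 ± 52.6 and 336 ± 40.2 (0.70, SE 0.24, adjusted p-value 0.586). In the other direction, *hil-1*, a linker histone, was at 126 ± 34.7 and 75.6 ± 9.28 (-0.73, SE 0.28, adjusted p-value 0.601). *sod-3*, the mitochondrial superoxide dismutase often used as a reporter of DAF-16, was picked after its value was seen and was at 88.3 ± 30.3 and 50.9 ± 8.52, with overlap (-0.79, adjusted p-value 0.678). The median of these targets was 0.06 and changed sign with the libraries used, being -0.22 when WT replicate 2 was left out and 0.41 when WT replicate 3 was, so that the list had no stable direction.

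Of 13 listed genes that are lowered when insulin signaling is low, 8 were tested, of which 1 higher and 1 lower gene had an unadjusted p-value under 0.05, with a median of -0.23. *vit-5*, a yolk protein made in the intestine, had normalized counts of 239813 ± 23092 in WT and 186689 ± 13528 in OE-labelled libraries, without overlap (log2 fold change -0.36, SE 0.14, adjusted p-value 0.601). Its reads can be split with near-identical vitellogenin copies, so this value is uncertain. *vit-2*, another yolk protein, was at -0.23 (adjusted p-value 0.884), and *dod-19* at 0.73 (264 ± 67.5 and 436 ± 116, adjusted p-value 0.601). Summed levels of this list were 5347 to 5708 RPKM in WT and 4357 to 4722 in OE-labelled libraries, of which *vit-2* and *vit-5* made up nearly all, with mean RPKM of 2864 and 2121 over the 6 libraries. Of 9 intestine markers, from the tissue that makes yolk, 6 had a log2 fold change below 0 (median -0.19), beside 52.8% of all genes. Without overlap between the groups, 3 were lower and 1 higher, beside 5.26% of all genes lower and 11.1% in either direction. Those lower were *vha-6*, a proton pump subunit (log2 fold change -0.42, adjusted p-value 0.627), *ges-1*, a gut esterase (-0.31, adjusted p-value 0.799), and *pept-1*, a peptide transporter (-0.31, adjusted p-value 0.708), the same direction as *vit-5*. The 3 markers above 0, in the other direction, were *elt-7* (0.17, without overlap), *elt-2* (0.28) and *act-5* (0.08). The summed marker level overlapped, at 1858 to 2682 in WT and 1726 to 2331, and the part of these markers in the yolk difference was not tested.

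The TOR and AMPK genes, the nutrient pathway nearest to insulin signaling, were all 19 tested, and 1 higher and 0 lower genes had an unadjusted p-value under 0.05, with a median of 0.01. *pha-4*, a FOXA factor, was at 249 ± 132 and 516 ± 184 normalized counts, with overlap (log2 fold change 1.05, SE 0.42, adjusted p-value 0.632). Its lowest libraries were again WT replicates 1 and 3, the highest for the sperm markers. *ife-2*, a cap-binding translation factor, was at 0.71, and at 0.19 with the short-gene covariate. *let-363*, the TOR kinase, was at -0.20. By these counts the core, with 0 of 8 past the unadjusted threshold, and the TOR and AMPK list, with 1 of 19, were each at or below the background share of 7.34%.

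**Figure D5:**
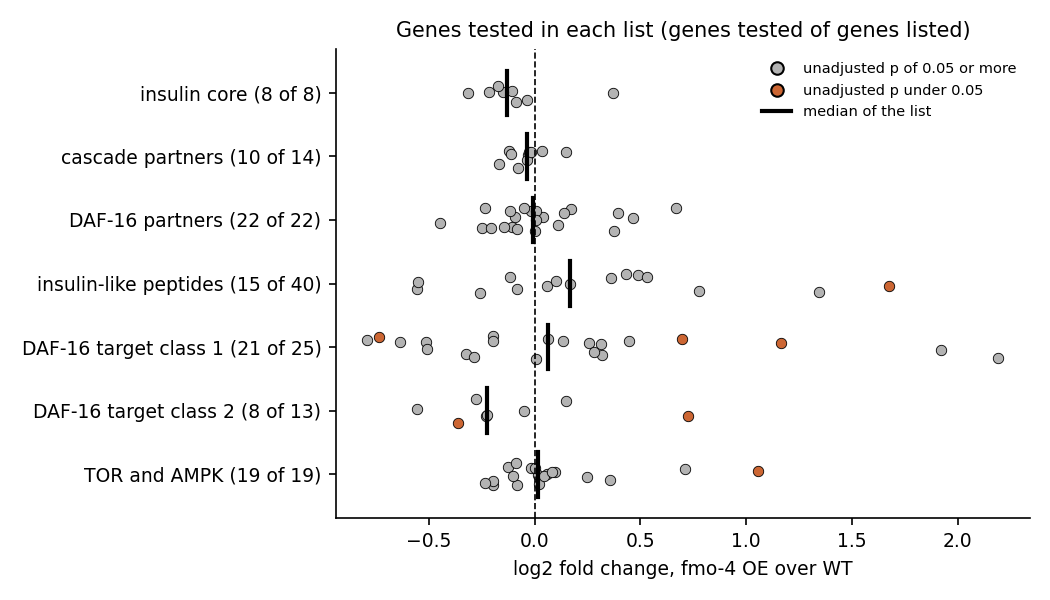
Log2 fold changes of the tested genes in the core and in the 6 surrounding lists, OE-labelled libraries over WT, with 1 point per gene (orange for an unadjusted p-value under 0.05) and a bar at the list's median; target class 1 holds genes raised and class 2 genes lowered when insulin signaling is low. The core's 8 points lie between -0.32 and 0.37, and the wider scatter is among insulin-like peptides and DAF-16 targets.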

How the data were processed

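Messenger RNA selected on poly-T beads from pooled whole day 1 adults was sequenced in paired ends. The submitters' processing notes list fastp, HISAT2, StringTie and featureCounts, and the genome build is not given in the sources used here. The authors deposited raw read counts per gene, and FPKM values computed from them (used here only to check levels). Deposited log2 fold changes, p-values and adjusted p-values of the authors' comparison were not used, nor were 60 further columns of values for single libraries. Coordinates and lengths are as deposited. On the WBcel235 annotation, 100% of matched genes had the same chromosome and 29.4% the same start. Identifiers were matched for 19873 of 20138 genes. The table starts at 2 reads per gene over all libraries.

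The counts were fitted with edgeR 4.0.16 in R 4.3.3 (filterByExpr, TMM factors of 0.941 to 1.03, robust glmQLFit, glmQLFTest), group as the only term, with Benjamini-Hochberg adjustment across all 13413 tested genes. Levels are RPKM recomputed from the counts, the deposited length and the effective (TMM-scaled) library size. Ratios were compared by exact permutation (scipy 1.17.1). The procedure was tested on simulated data with planted changes larger than those estimated for the core genes. That test does not show how well changes as small as those of the core would be found. Alternatives were DESeq2 1.42.0, RLE factors, no TMM factors, no filter, at least 10 counts in every library, the replicate number as a block, the percent of reads in short genes as a covariate, and each library left out. The replicates behind each p-value are 3 pools of worms per group. The edgeR p-values test a group difference against a variance estimated with information shared across genes.

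The members, lists and tests were chosen with earlier results of these data known. Named genes were the 8 members, *fmo-4*, the 3 tested genes of each list with the smallest unadjusted p-value, and the 3 genes whose profile was most like that of *daf-2* and of *daf-16*. Marker lists of germline, sperm, neuron, intestine and hypodermis were used as summed levels and as counts of genes, and markers named singly were picked after their values were seen. No sequences are shown.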

Additional observations from a re-analysis of the deposited data

How the results depend on the processing

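The fold changes of the 8 genes were recomputed under 13 alternatives each, and of all these values 0 passed the adjusted threshold, 102 kept their sign and 2 had an unadjusted p-value under 0.05 (*pdk-1* without *fmo-4* OE replicate 1, *daf-2* with the short-gene covariate). In those 2 fits 10.4% and 8.92% of all genes tested were under the same threshold. With 1 library left out at a time, log2 fold changes ranged from -0.27 to -0.13 for *daf-2*, -0.22 to -0.04 for *age-1*, -0.084 to 0.0049 for *daf-18*, 0.18 to 0.58 for *pdk-1*, -0.16 to -0.04 for *akt-1*, -0.45 to -0.17 for *akt-2*, -0.35 to 0.047 for *sgk-1* and -0.23 to -0.10 for *daf-16*. The sign turned for *daf-18* without WT replicate 2 (0.0049) and for *sgk-1* without WT replicate 3 (0.047), and the group difference in the log2 ratio of *daf-2* to *daf-16* ranged from -0.11 to 0.093, above 0 when WT replicate 3 (0.093) or *fmo-4* OE replicate 1 (0.024) was left out. The cause was not tested.

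The count of all genes called, 6, was 122 with DESeq2, 10 without the filter, 0 with at least 10 counts in every library (792 at an unadjusted p-value under 0.05), 14 with the short-gene covariate, 984 unadjusted, and 0 (without WT replicate 1) to 131 (without WT replicate 2) with a library left out. Whether the replicate numbers pair the libraries could not be told. Correlations of deviations were 0.43, -0.31 and 0.36 for same-numbered libraries, and 0.51 for WT replicate 3 with *fmo-4* OE replicate 2. With the replicate block 5 genes were called, *daf-2* was at -0.21 (adjusted p-value 0.606), and no call on a core gene changed. The genes with the fewest reads, *pdk-1*, *akt-2* and *sgk-1*, had the widest intervals. Of the surrounding genes, *cki-1* kept an unadjusted p-value under 0.05 in 13 of 13 alternatives, *fat-5* in 10, *hil-1* and *dod-19* in 9, *vit-5* and *pha-4* in 8, and *ins-2* in 7 of the 12 that tested it, and 0 passed the adjusted threshold in any. These genes were named for their small p-values in the same libraries that the alternatives use, so these counts are not independent support.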
